A study of Rattus norvegicus with 12 samples.

Results

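The tumor necrosis factor (TNF) ligand and receptor superfamily was followed in kidneys of 2 rat models of renal fibrosis (RF), one induced by adenine and one by unilateral ureteral obstruction (UUO). The family was taken by symbol: every gene of both expression tables whose name starts with Tnfsf or Tnfrsf, together with Tnf, Lta, Ltb, Ltbr, Fas, Faslg, Cd27, Cd40, Cd40lg, Cd70, Ngfr, Eda, Edar, Eda2r and Relt. This gave 43 genes, each listed once and with the same symbols in both tables, of 22132 entries where control and adenine kidneys are listed and 32623 where sham and UUO kidneys are. Of them, 18 were ligands and 25 were receptors.

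Ligands of this family are mostly membrane proteins that can be cut off the cell surface, and they bind as trimers to receptors with cysteine-rich domains. Receptors with a death domain, such as Tnfrsf1a and Fas, can pass the signal to caspases or to RIP kinases, while other receptors, such as Tnfrsf1b and Cd40, bind TRAF adaptors and switch on NF-kB. In the kidney the family is known from inflammation, from death of tubular cells and from the traffic between infiltrating leukocytes and resident cells.

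RNA was sequenced from kidneys of 12 wild-type male SD rats, an outbred laboratory strain, purchased at 8 weeks of age, in 4 groups of 3 rats. Rats of the adenine group received adenine, a purine that damages the tubules, by gavage every day for 3 weeks, and the control group received saline over the same time. In the UUO group 1 ureter, the left, was tied off and the kidneys were taken 2 weeks later, and the sham group had the same operation without ligation. Each library held poly(A) RNA of a whole piece of kidney from a single rat, so that a change in the number of cells of a type and a change in RNA per cell cannot be told apart.

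The authors deposited FPKM, sequenced fragments scaled to transcript length and to the fragments mapped in the library, which allows levels of different genes to be compared per length. The number of reads behind a value is unknown, and the precision of each value is the spread between 3 rats. FPKM summed to between 564972 and 582725 in control, 468389 and 487770 in adenine, 619664 and 630244 in sham and 528811 and 539011 in UUO kidneys, and pairs of replicates correlated over genes with r between 0.952 and 0.971. Since the 2 tables have unlike lowest values (0 and 0.0001) and unlike sizes, changes were tested within each table. Markers of proximal tubule, thick limb, collecting duct and podocytes, which define kidney tissue, were present in every group. Control kidneys differed in podocyte markers, which summed to between 30.5 FPKM in control replicate 2 and 193 FPKM.

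A gene was tested where 3 or more of the 6 samples of a table had an FPKM of 0.5 or higher. The log2 fold change and its standard error (SE) come from limma on log2(FPKM + 0.1), a scale that understates the change of genes with low FPKM, and every p is adjusted (Benjamini-Hochberg) for all genes tested in the table. A gene is said to have risen or fallen where the adjusted p was under 0.05, and it is called a DEG where the absolute log2 fold change was also at least 2. For a single gene an exact permutation test of 3 against 3 samples cannot give a p below 0.1.

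The family was upregulated in both models. In the adenine model 28 of the 43 genes were tested, and 16 were DEGs, all upregulated, where 10.7% of all 15029 tested genes were upregulated DEGs and 5.03% downregulated ones. With UUO 32 members were tested, of which 25 were DEGs, again all upregulated, against 13.2% of all 15043 tested genes (4.21% for downregulated DEGs). Without the fold threshold, 24 members rose and 1, Tnfrsf25, fell in the adenine model (39.6% and 19.9% of all tested genes), and 29 rose and 0 fell in the UUO model (56.1% and 14.4%). At an unadjusted p under 0.05 in limma 2 members, Tnfrsf14 and Tnfrsf25, were lower in adenine kidneys and 0 in UUO kidneys. The median log2 fold change of the tested members was 2.18 with adenine and 2.65 with UUO, beside 0.30 and 0.62 for all tested genes. Samples of the groups did not overlap for 24 members that were higher and 2 that were lower in adenine kidneys (45.0% and 23.0% of all tested genes), and for 29 higher and 1 lower in UUO kidneys (60.0% and 15.7%). With each sample scaled instead by the median, over genes, of its FPKM relative to the mean of a gene (median-of-ratios scaling), the medians of all tested genes came to 0.07 and 0.08, and 13 and 19 members were upregulated DEGs. The calls of a DEG lost there were Cd40, Tnfrsf1a and Tnfsf10 in the adenine model, and Eda, Ltb, Tnfrsf1a, Tnfrsf9, Tnfrsf25 and Tnfrsf26 after UUO. Of the tested members, 7 with adenine and 11 with UUO reached the minimum FPKM in no undiseased sample. They had to differ in order to be tested at all. With adenine these were Cd70, Relt, Tnf, Tnfrsf8, Tnfsf8, Tnfsf9 and Tnfsf18. With UUO they were Cd27, Cd40lg, Eda, Faslg, Ngfr, Tnf, Tnfrsf4, Tnfsf8, Tnfsf9, Tnfsf14 and Tnfsf18. For these genes the filter alone set the groups apart, and their adjusted p serves as a description. Among members at or above the minimum in all 3 undiseased samples, 7 of 17 were upregulated DEGs in the adenine model (6.26% of all such genes) and 9 of 15 in the UUO model (8.37%).

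**Figure D1:**
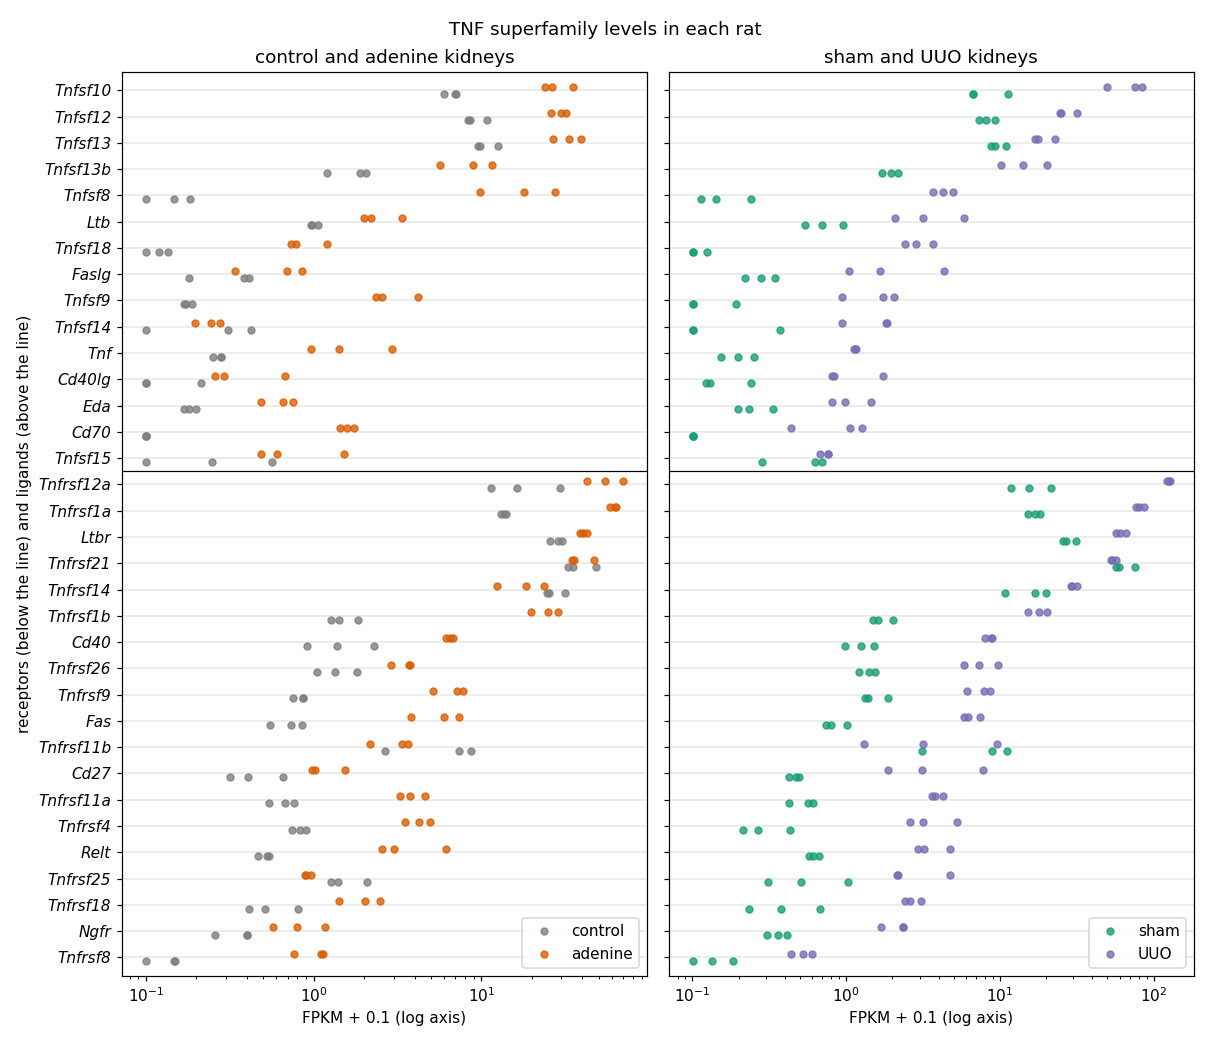
FPKM + 0.1 on a log axis of the family members tested in at least one model, with one point for each rat, in control and adenine kidneys (left) and in sham and UUO kidneys (right). Ligands stand above the line and receptors below it, and Tnfsf8 shows the widest gap between the groups of the left panel, from 0.0844 FPKM at most in control kidneys to 9.69 FPKM at least in adenine kidneys.

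Of the members, 14 were upregulated DEGs in both models. They were Tnf, Tnfsf8, Tnfsf9, Tnfsf10, Tnfsf13b and Tnfsf18 among the ligands and Tnfrsf1a, Tnfrsf1b, Tnfrsf4, Tnfrsf9, Tnfrsf11a, Cd40, Fas and Relt among the receptors. Of these, Tnf, Tnfsf8, Tnfsf9 and Tnfsf18 reached the minimum FPKM in no undiseased sample of either model, so the filter alone set their groups apart. The same held for Relt in the adenine and Tnfrsf4 in the UUO model. Of all tested genes 10.7% were upregulated DEGs in the adenine and 13.2% in the UUO model. The share of all genes that were upregulated DEGs in both models was not counted, so the count of 14 has no such share beside it. Cd70 and Tnfrsf8 were DEGs in the adenine model and were not tested in the UUO model. Of the 11 that were DEGs in the UUO model alone, Cd40lg, Eda, Faslg, Ngfr and Tnfsf14 were not tested in the adenine model, and Cd27, Ltb, Tnfrsf12a, Tnfrsf18, Tnfrsf25 and Tnfrsf26 were tested in both.

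Undiseased kidneys carried mainly receptors. Receptors summed to 134 to 149.9 FPKM in control and 150.9 to 163 FPKM in sham kidneys, and ligands to 28.4 to 30.5 and 26.5 to 31.9 FPKM. The highest member in both was Tnfrsf21, also known as death receptor 6, with a mean of 38.7 ± 8.2 FPKM (SD, n = 3) in control and 64.1 ± 9.9 FPKM in sham kidneys, and its samples did not overlap with those of Ltbr, the next in order. Ltbr, the lymphotoxin beta receptor, stood at 28.1 ± 2.4 and 27.8 ± 2.9 FPKM. Tnfrsf14, Tnfrsf12a and Tnfrsf1a came next, and in neither group could neighbours among these 3 be ordered, as their samples overlapped. The highest ligands were Tnfsf13, Tnfsf12 and Tnfsf10, at 10.5 ± 1.6, 9.12 ± 1.41 and 6.60 ± 0.60 FPKM in control kidneys and 9.58 ± 1.12, 8.09 ± 0.99 and 8.15 ± 2.70 FPKM in sham kidneys.

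The order changed in diseased kidneys. In the adenine group Tnfrsf1a had the highest mean, 61.4 ± 2.4 FPKM, followed by Tnfrsf12a at 55.4 ± 13.7 FPKM, whose samples overlapped with it. In the UUO group Tnfrsf12a was highest at 125 ± 2.7 FPKM, above every sample of Tnfrsf1a at 81.1 ± 4.7 FPKM, and Tnfsf10 was the highest ligand at 69.6 ± 17.5 FPKM. Ligands then summed to 109.6 to 147 FPKM in adenine and 128 to 172 FPKM in UUO kidneys, and receptors to 260.3 to 300.9 and 419 to 439 FPKM.

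Among the ligands, 10 were tested in the adenine model, where 7 were DEGs and 3 more rose. The UUO table had 14 tested ligands, of which 11 were DEGs and 2 more rose. Upregulated DEGs made up 10.7% of all tested genes in the adenine and 13.2% in the UUO model, and 39.6% and 56.1% rose. With adenine the DEGs Cd70, Tnf, Tnfsf8, Tnfsf9 and Tnfsf18 reached the minimum FPKM in no undiseased sample. With UUO this held for Cd40lg, Eda, Faslg, Tnf, Tnfsf8, Tnfsf9, Tnfsf14 and Tnfsf18. The filter alone set the groups of these ligands apart, so their calls are a description. Tnf, the inflammatory cytokine that names the family, was at 0.179, 0.150 and 0.181 FPKM in control kidneys and 2.83, 0.867 and 1.31 FPKM in adenine kidneys. Adenine replicate 1 was the highest. Every adenine sample lay above every control sample, a separation that the filter required of Tnf in both tables. In sham kidneys it was at 0.0526, 0.151 and 0.0977 FPKM and in UUO kidneys at 1.02, 1.04 and 1.06 FPKM, which again did not overlap. Tnf had a log2 fold change of 2.56 (SE 0.43, adjusted p = 0.00249) in the adenine model and 2.54 (SE 0.32, adjusted p = 0.000474) in the UUO model. Even in diseased kidneys Tnf stayed at a low level per length, at most 2.83 FPKM.

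Tnfsf8, the CD30 ligand of activated lymphocytes and myeloid cells, had the largest log2 fold change of the family in the adenine model. It was at 0.0478, 0.0844 and 0 FPKM in control kidneys and at 17.9, 9.69 and 27.3 FPKM in adenine kidneys. Adenine samples spread widely but stayed far above the controls. In sham kidneys it was at 0.139, 0.0429 and 0.0142 FPKM and in UUO kidneys at 4.16, 4.85 and 3.56 FPKM, with UUO samples closer together and below each adenine sample, although levels of the 2 tables were set separately. The log2 fold change was 6.92 (SE 0.43, adjusted p = 5.48e-05) in the adenine model and 4.76 (SE 0.35, adjusted p = 5.31e-05) in the UUO model. Its receptor Tnfrsf8 (CD30) was at 0, 0.0465 and 0.0496 FPKM in control and 0.664, 1.00 and 1.04 FPKM in adenine kidneys, a log2 fold change of 2.92 (SE 0.35, adjusted p = 0.000584). In the other table Tnfrsf8 did not reach the minimum for testing, at 0.0001, 0.0844 and 0.0335 FPKM in sham and 0.426, 0.340 and 0.503 FPKM in UUO kidneys, where the UUO samples lay above all sham samples.

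Tnfsf9, the 4-1BB ligand, which gives T cells a costimulatory signal, was at 0.0744, 0.0695 and 0.0890 FPKM in control and 4.06, 2.25 and 2.46 FPKM in adenine kidneys. All adenine samples lay above the controls, and the log2 fold change was 4.04 (SE 0.30, adjusted p = 9.93e-05). In sham kidneys Tnfsf9 was at the lowest value of the table, 0.0001 FPKM, in 2 samples and at 0.0908 FPKM in the other, and in UUO kidneys at 1.96, 0.837 and 1.63 FPKM, a log2 fold change of 3.59 (SE 0.46, adjusted p = 0.000496). Its receptor Tnfrsf9 (4-1BB) was at 0.760, 0.762 and 0.658 FPKM in control and 5.04, 7.69 and 7.07 FPKM in adenine kidneys, which did not overlap, with a log2 fold change of 3.00 (SE 0.21, adjusted p = 8.27e-05). In sham kidneys Tnfrsf9 was at 1.29, 1.22 and 1.76 FPKM and in UUO kidneys at 8.46, 7.80 and 6.03 FPKM, a log2 fold change of 2.31 (SE 0.21, adjusted p = 0.000119). Both partners of this pair were DEGs in both models, although for Tnfsf9 the filter alone set the groups apart.

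Tnfsf18, the ligand of GITR, was at 0, 0.0203 and 0.0363 FPKM in control and 0.682, 0.631 and 1.09 FPKM in adenine kidneys, a log2 fold change of 2.90 (SE 0.36, adjusted p = 0.000637). In sham kidneys 2 samples were at 0.0001 FPKM and the other at 0.0236 FPKM, and UUO kidneys had 2.30, 3.60 and 2.75 FPKM. The UUO samples were all far above the sham samples, and the log2 fold change, 4.77 (SE 0.31, adjusted p = 3.45e-05), was with that of Tnfsf8 (4.76) one of the 2 largest of the family in that model. Their order turned without sham replicate 1, UUO replicate 2 or UUO replicate 3 and with FPKM rescaled to the same sum, and with a pseudocount of 1 Tnfsf10 was the largest (2.95). Its receptor Tnfrsf18 (GITR), found on regulatory and activated T cells, rose in the adenine model, from 0.314, 0.710 and 0.410 FPKM to 1.93, 1.32 and 2.37 FPKM and with a log2 fold change of 1.79 (SE 0.35, adjusted p = 0.00451), under the fold threshold of a DEG. With UUO it went from 0.575, 0.134 and 0.274 FPKM to 2.98, 2.50 and 2.30 FPKM, with a log2 fold change of 2.78 (SE 0.41, adjusted p = 0.000918). Groups did not overlap in either model.

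Tnfsf10 (TRAIL), a ligand that can trigger apoptosis, was the most abundant ligand of UUO kidneys. FPKM was 11.3, 6.59 and 6.59 in sham and 75.6, 83.3 and 49.9 in UUO kidneys, and the lowest UUO sample was well above the highest sham sample. In control kidneys it was 5.91, 7.00 and 6.89 and in adenine kidneys 23.9, 26.1 and 35.2, so the adenine groups were also apart. The log2 fold change was 3.09 (SE 0.27, adjusted p = 0.000106) in the UUO model and 2.07 (SE 0.17, adjusted p = 0.000134) in the adenine model, where it was just past the threshold of a DEG and came under it without control replicate 1 or adenine replicate 3 (1.91).

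Tnfsf13b (BAFF), a survival factor of B cells, was at 1.94, 1.11 and 1.79 FPKM in control and 5.54, 11.5 and 8.77 FPKM in adenine kidneys, and at 1.84, 1.61 and 2.09 FPKM in sham and 20.1, 10.1 and 14.1 FPKM in UUO kidneys. Diseased samples varied among themselves but lay above all undiseased samples. The log2 fold change was 2.32 (SE 0.32, adjusted p = 0.0011) in the adenine model and 2.88 (SE 0.26, adjusted p = 0.000115) in the UUO model. The related Tnfsf13 (APRIL) rose in both without being a DEG, with a log2 fold change of 1.63 (SE 0.18, adjusted p = 0.000419) and 0.98 (SE 0.15, adjusted p = 0.00116). The 3 receptors of these ligands on B-lineage cells, Tnfrsf13b (TACI), Tnfrsf13c (BAFF receptor) and Tnfrsf17 (BCMA), reached the minimum in too few samples of either table. Their highest values were 0.712, 0.888 and 0.623 FPKM, each in a UUO sample, replicate 3 for Tnfrsf13b and Tnfrsf17 and replicate 1 for Tnfrsf13c.

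Tnfsf12 (TWEAK) and its receptor Tnfrsf12a (Fn14) were both well expressed in undiseased kidneys. Tnfsf12 was at 8.18, 10.7 and 8.42 FPKM in control and 31.7, 25.9 and 29.8 FPKM in adenine kidneys, and at 7.99, 9.13 and 7.16 FPKM in sham and 31.8, 24.6 and 24.8 FPKM in UUO kidneys. It rose by similar amounts, with a log2 fold change of 1.67 (SE 0.15, adjusted p = 0.000171) and 1.73 (SE 0.15, adjusted p = 9.12e-05), and the groups were apart in both. Tnfrsf12a was at 11.7, 15.5 and 21.3 FPKM in sham and 122, 126 and 127 FPKM in UUO kidneys, and the 3 UUO samples were nearly equal. In control kidneys Tnfrsf12a varied, at 16.1, 29.4 and 11.2 FPKM, and adenine kidneys had 42.3, 69.6 and 54.2 FPKM, all above the highest control. The log2 fold change of Tnfrsf12a was 2.99 (SE 0.20, adjusted p = 4.28e-05) in the UUO model and 1.63 (SE 0.36, adjusted p = 0.00761) in the adenine model, where it reached 2.00 without control replicate 2, the highest control.

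Among ligands of lymphocytes, Faslg, Cd40lg and Tnfsf14 were tested in the UUO model alone. Faslg, the death ligand of cytotoxic T cells and NK cells, was at 0.180, 0.121 and 0.245 FPKM in sham and 1.56, 0.948 and 4.23 FPKM in UUO kidneys, a log2 fold change of 2.82 (SE 0.54, adjusted p = 0.00312). Cd40lg, which T helper cells use to signal to B cells and macrophages, was at 0.0294, 0.140 and 0.0221 FPKM in sham and 0.733, 0.710 and 1.62 FPKM in UUO kidneys, with a log2 fold change of 2.75 (SE 0.47, adjusted p = 0.00182). Both were highest in UUO replicate 3. The T cell markers Cd2, Cd3d, Cd3e, Cd3g, Cd5 and Cd8a summed to 150.0 FPKM in that replicate, beside 60.7 and 50.8 FPKM in the other UUO kidneys and 5.52 to 8.89 FPKM in sham kidneys. Without UUO replicate 3 the log2 fold change of Faslg was 2.25 and that of Cd40lg 2.40, and both were still DEGs, while the part of T cell numbers in these changes was not tested. Tnfsf14 (LIGHT), which binds Tnfrsf14 and Ltbr, was at 0.0001 FPKM in 2 sham samples and 0.269 FPKM in the other, and at 1.73, 0.837 and 1.74 FPKM in UUO kidneys, a log2 fold change of 3.25 (SE 0.61, adjusted p = 0.00287). In the adenine table these 3 ligands reached the minimum in too few samples, with at most 0.752 FPKM for Faslg, 0.575 FPKM for Cd40lg and 0.324 FPKM for Tnfsf14. Control and adenine samples overlapped for Faslg and Tnfsf14.

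Cd70 was listed at 0 FPKM in all 3 control kidneys and was at 1.65, 1.34 and 1.47 FPKM in adenine kidneys, a DEG by the fit (adjusted p = 8.16e-05) for which no fold is given, because the control level is unknown. In the sham and UUO table Cd70 was at 0.0001 FPKM in all sham kidneys and at 1.16, 0.339 and 0.954 FPKM in UUO kidneys, with 2 samples over the minimum, and was not tested. Its receptor Cd27, a costimulatory receptor of T cells and memory B cells, was at 0.561, 0.217 and 0.304 FPKM in control and 0.913, 1.43 and 0.873 FPKM in adenine kidneys. It rose with a log2 fold change of 1.39 (SE 0.37, adjusted p = 0.016), a call that was lost without adenine replicate 2, the highest sample (1.18, adjusted p = 0.0539). In the UUO model Cd27 was at 0.324, 0.375 and 0.397 FPKM in sham and 3.03, 1.78 and 7.63 FPKM in UUO kidneys, a log2 fold change of 2.94 (SE 0.50, adjusted p = 0.00182). Cd27 was highest in UUO replicate 3, the kidney with the highest T cell marker sum, and had a log2 fold change of 2.38 without it. Other receptors of T cells went the other way. Tnfrsf4, Tnfrsf9, Tnfrsf18 and Tnfrsf25 were each lowest of the UUO group in that replicate, at 2.49, 6.03, 2.30 and 2.05 FPKM.

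Ltb, the membrane-bound part of lymphotoxin, rose in both models. It was at 0.872, 0.956 and 0.869 FPKM in control and 2.09, 1.89 and 3.28 FPKM in adenine kidneys, a log2 fold change of 1.298 (SE 0.25, adjusted p = 0.0046). Sham kidneys had 0.444, 0.859 and 0.592 FPKM and UUO kidneys 5.74, 3.04 and 1.98 FPKM, with a log2 fold change of 2.24 (SE 0.42, adjusted p = 0.00285), which was 1.84 without UUO replicate 1, the highest sample. Here UUO replicate 3 was the lowest of its group. Lta, the soluble part of lymphotoxin, was at most 0.190 FPKM in any sample and was not tested. Eda, a ligand known from the development of hair and teeth, was at 0.233, 0.133 and 0.0986 FPKM in sham and 0.707, 0.889 and 1.35 FPKM in UUO kidneys, with a log2 fold change of 2.08 (SE 0.37, adjusted p = 0.00227) that lay under 2 without sham replicate 3 (1.91) or UUO replicate 3 (1.84). Its receptors Edar and Eda2r were not tested and were at most 0.325 and 0.167 FPKM. Tnfsf15 (TL1A), the ligand of Tnfrsf25, did not pass the test in the UUO model, with a log2 fold change of 0.56 (SE 0.40, adjusted p = 0.249), and its groups overlapped in both tables.

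**Figure D2:**
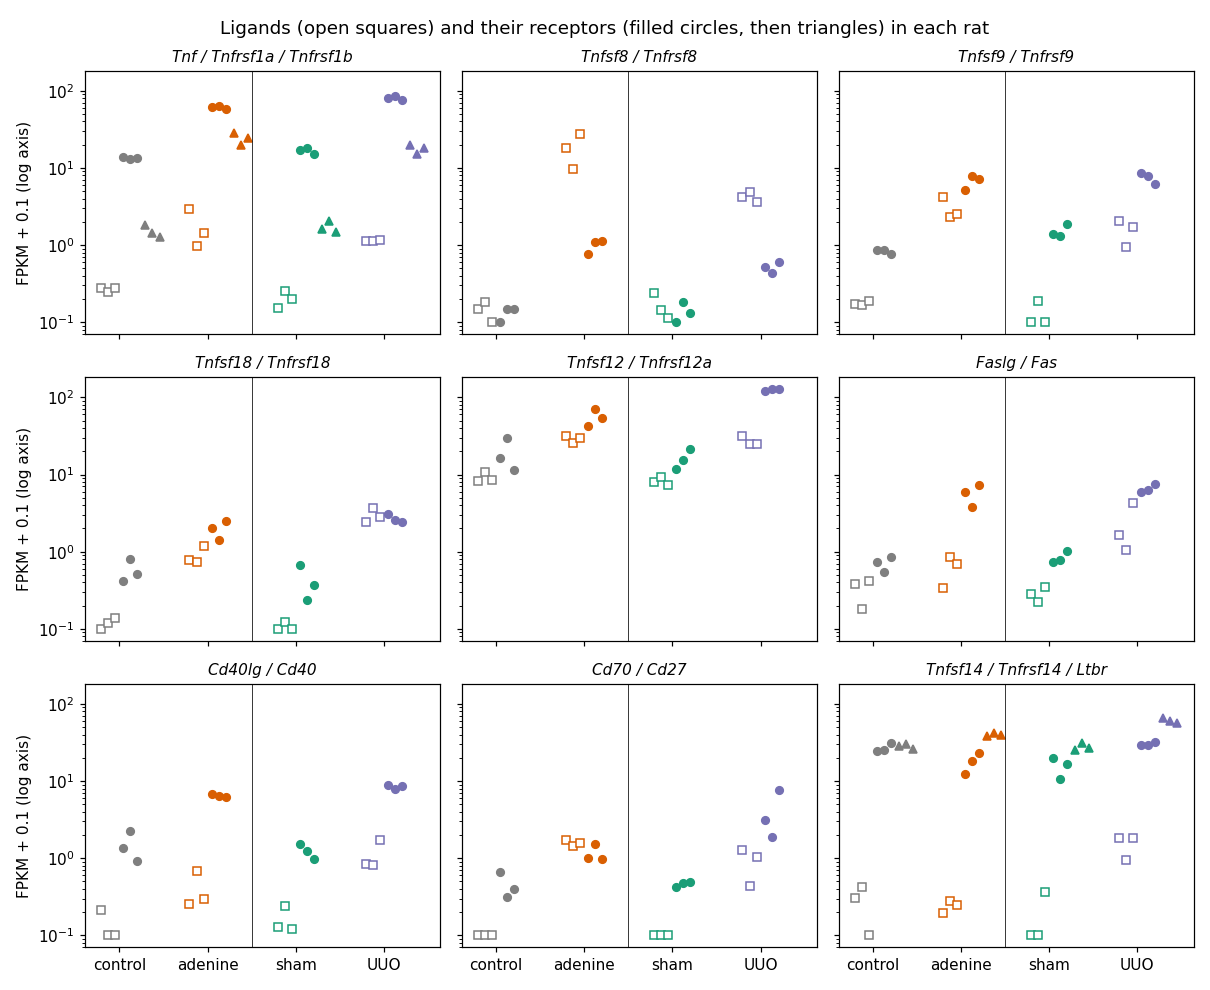
FPKM + 0.1 on a log axis for 9 sets of a ligand (open squares) and its receptors (filled circles, then triangles), with one mark for each rat of each group. Tnf rose together with Tnfrsf1a and Tnfrsf1b in both models, while Tnfsf14 was at 0.837 to 1.74 FPKM in UUO kidneys and at most 0.324 FPKM in the other groups.

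Of the receptors, 18 were tested in each model. In the adenine model 9 were upregulated DEGs and in the UUO model 14, against 10.7% and 13.2% of all tested genes. Among these DEGs, Relt and Tnfrsf8 with adenine and Cd27, Ngfr and Tnfrsf4 with UUO were set apart by the filter alone. Both TNF receptors were among the DEGs of each model. Tnfrsf1a (TNFR1), the death domain receptor that most cells carry, was at 13.9, 13.1 and 13.5 FPKM in control and 62.2, 63.3 and 58.6 FPKM in adenine kidneys, 4.56-fold higher by the means. In sham kidneys it was at 16.8, 18.1 and 15.0 FPKM and in UUO kidneys at 80.7, 86.1 and 76.6 FPKM, 4.88-fold higher. Replicates were close together in all 4 groups, and the log2 fold change was 2.18 (SE 0.09, adjusted p = 2.48e-05) in the adenine and 2.28 (SE 0.10, adjusted p = 1.26e-05) in the UUO model. Under median-of-ratios scaling it was 1.94 and 1.74, under the threshold of a DEG. Tnfrsf1b (TNFR2), which lacks a death domain and is found mainly on leukocytes and endothelium, started at a lower level. It was at 1.74, 1.33 and 1.16 FPKM in control and 28.5, 19.6 and 24.7 FPKM in adenine kidneys, 17.2-fold higher, and at 1.51, 1.93 and 1.39 FPKM in sham and 20.002, 15.0 and 18.0 FPKM in UUO kidneys, 10.96-fold higher. Its log2 fold change was 4.01 (SE 0.21, adjusted p = 3.4e-05) in the adenine and 3.38 (SE 0.18, adjusted p = 1.9e-05) in the UUO model.

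Fas, the death receptor of Faslg, was at 0.631, 0.452 and 0.755 FPKM in control and 5.88, 3.72 and 7.21 FPKM in adenine kidneys, and at 0.640, 0.691 and 0.909 FPKM in sham and 5.76, 6.14 and 7.36 FPKM in UUO kidneys. Groups were apart in both tables, and the log2 fold change of Fas was nearly the same in the models, 2.97 (SE 0.30, adjusted p = 0.000301) and 2.95 (SE 0.20, adjusted p = 4.35e-05). Ngfr, the low-affinity receptor of neurotrophins, was at 0.205, 0.263 and 0.314 FPKM in sham and 2.22, 1.59 and 2.26 FPKM in UUO kidneys, a log2 fold change of 2.55 (SE 0.27, adjusted p = 0.000221). In the adenine table Ngfr was not tested, and its adenine samples, at 1.07, 0.698 and 0.470 FPKM, lay above the control samples, at 0.303, 0.298 and 0.158 FPKM.

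Tnfrsf21, the highest member of undiseased kidneys, passed the test in neither model. It was at 48.1, 32.9 and 35.2 FPKM in control and 34.7, 46.5 and 35.5 FPKM in adenine kidneys, which overlapped, and the log2 fold change was 0.01 (SE 0.19, adjusted p = 0.954). In sham kidneys it was at 57.0, 75.4 and 59.8 FPKM and in UUO kidneys at 53.0, 56.7 and 53.5 FPKM, all lower than sham, with a log2 fold change of -0.23 (SE 0.12, adjusted p = 0.129). Under median-of-ratios scaling the value was -0.77 (adjusted p = 0.00238). The decoy receptor Tnfrsf11b (osteoprotegerin) did not pass the test either. It varied between rats of a group, at 11.1, 3.03 and 8.76 FPKM in sham and 9.41, 3.05 and 1.21 FPKM in UUO kidneys, with a log2 fold change of -0.99 (SE 0.78, adjusted p = 0.287) there and -0.88 (SE 0.47, adjusted p = 0.145) in the adenine model, and groups overlapped in both. Without control replicate 1 the adenine value was -1.42 (adjusted p = 0.00747). Tnfrsf11a (RANK), whose ligand Tnfsf11 osteoprotegerin captures, was a DEG in both models. FPKM of Tnfrsf11a was 0.662, 0.571 and 0.439 in control and 3.19, 4.49 and 3.66 in adenine kidneys, and 0.461, 0.509 and 0.328 in sham and 3.54, 4.15 and 3.66 in UUO kidneys. Its log2 fold change was 2.56 (SE 0.23, adjusted p = 0.0002) in the adenine and 2.88 (SE 0.23, adjusted p = 6.92e-05) in the UUO model. Tnfsf11 (RANKL) itself was at the lowest value in 4 of the 6 samples of the first table and in all samples of the second.

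Cd40, through which T cells activate B cells, macrophages and dendritic cells, was at 1.42, 1.14 and 0.880 FPKM in sham and 8.82, 7.91 and 8.60 FPKM in UUO kidneys, with a log2 fold change of 2.80 (SE 0.20, adjusted p = 4.96e-05). In the adenine model it was at 1.27, 2.17 and 0.811 FPKM in control and 6.64, 6.35 and 6.05 FPKM in adenine kidneys, a log2 fold change of 2.19 (SE 0.33, adjusted p = 0.00149), which was 1.87 without control replicate 3, the lowest control. Tnfrsf4 (OX40), a costimulatory receptor of T cells, was at 0.735, 0.645 and 0.799 FPKM in control and 3.40, 4.12 and 4.85 FPKM in adenine kidneys, a log2 fold change of 2.35 (SE 0.21, adjusted p = 0.000182). It was lower in sham kidneys, at 0.331, 0.167 and 0.112 FPKM, and was at 3.04, 5.16 and 2.49 FPKM in UUO kidneys, a log2 fold change of 3.59 (SE 0.39, adjusted p = 0.000247). Its ligand Tnfsf4 was at the lowest value in all 6 undiseased kidneys, and it was at 0.188 to 0.443 FPKM in adenine and 0.0291 to 0.216 FPKM in UUO kidneys, under the minimum for testing.

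Relt, a receptor of lymphoid tissue, was at 0.364, 0.439 and 0.430 FPKM in control and 6.08, 2.93 and 2.47 FPKM in adenine kidneys, and adenine replicate 1 stood above the other two. In sham kidneys it was at 0.507, 0.563 and 0.469 FPKM and in UUO kidneys at 4.61, 2.81 and 3.12 FPKM. Its log2 fold change was 2.83 (SE 0.36, adjusted p = 0.000692) in the adenine and 2.53 (SE 0.25, adjusted p = 0.00016) in the UUO model, and the groups were apart in both. Tnfrsf26 was at 0.941, 1.70 and 1.24 FPKM in control and 3.60, 2.80 and 3.64 FPKM in adenine kidneys, a log2 fold change of 1.33 (SE 0.25, adjusted p = 0.00419). Sham kidneys had 1.11, 1.32 and 1.44 FPKM and UUO kidneys 9.55, 7.25 and 5.70 FPKM, a log2 fold change of 2.43 (SE 0.23, adjusted p = 0.000132). Tnfrsf19 (TROY), which was not tested, was at 0.321 to 0.521 FPKM in UUO and at 0.0453 to 0.0568 FPKM in sham kidneys.

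**Figure D3:**
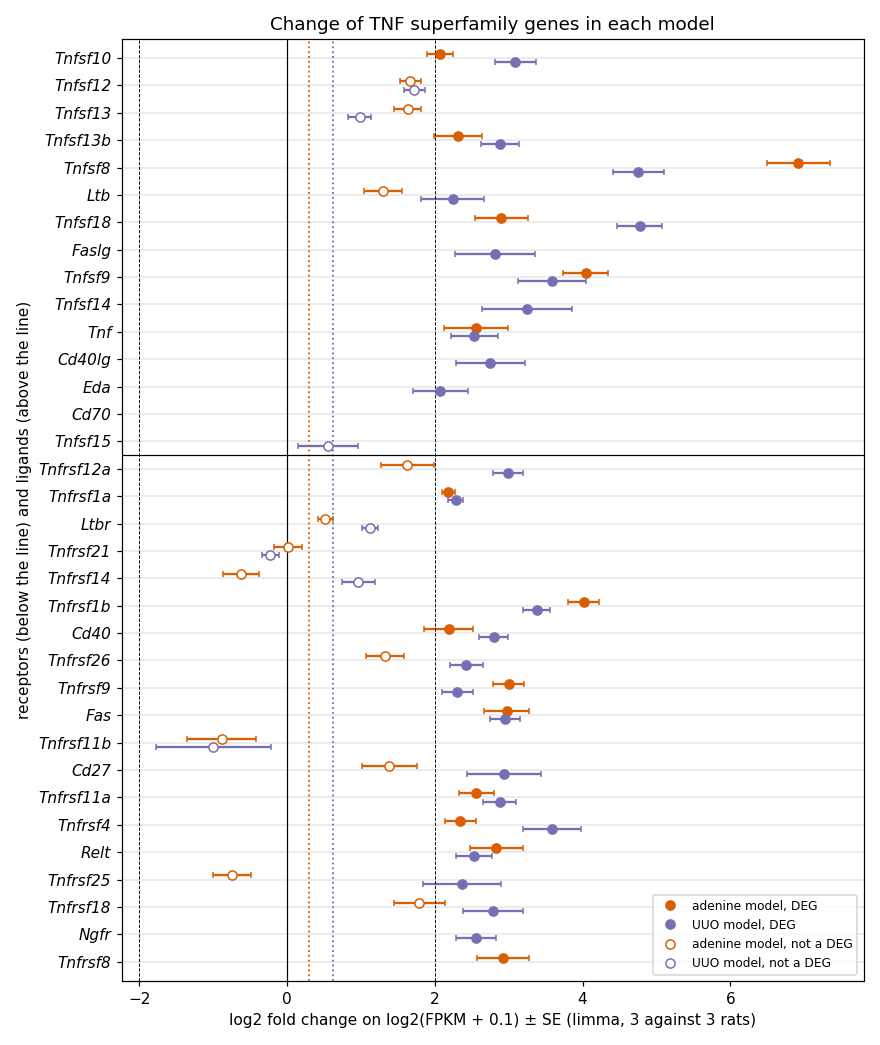
Log2 fold change ± SE of the tested family members on the log2(FPKM + 0.1) scale in the adenine model (orange) and the UUO model (purple), with DEGs as filled points, ligands above the line and receptors below it. Dashed lines mark a log2 fold change of 2 in either direction, dotted lines the medians of all tested genes (0.30 and 0.62), and Cd70 has no point because its control samples were listed at 0.

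The 2 models were then compared for the 26 members tested in both, by the difference of the log2 fold changes with its SE. This difference was at least 2 with an adjusted p under 0.05 for 2 members, Tnfrsf25 and Tnfsf8, where 2.88% of all 13486 genes compared were so called. With the adjusted p alone 8 members differed (27.0% of all genes compared). Tnfrsf25 (DR3), a death domain receptor of T cells, was at 1.29, 1.98 and 1.16 FPKM in control and 0.789, 0.805 and 0.867 FPKM in adenine kidneys, so that all adenine samples lay below the controls. In sham kidneys it was at 0.209, 0.409 and 0.934 FPKM and in UUO kidneys at 4.66, 2.09 and 2.05 FPKM, all above sham. Its log2 fold change was -0.75 (SE 0.26, adjusted p = 0.0423) in the adenine and 2.37 (SE 0.52, adjusted p = 0.00588) in the UUO model, and the difference between them was -3.11 (SE 0.58, adjusted p = 0.00247). The fall in the adenine model was small, and its adjusted p was 0.0646 to 0.0981 in the 5 of 6 fits without one sample in which it was lost, all but that without control replicate 3. In the UUO model Tnfrsf25 was no longer a DEG without sham replicate 1 (1.96) or UUO replicate 1 (1.99). Tnfrsf25 was higher in every control than in every sham sample, although levels of the 2 tables were set separately. The part of these unlike undiseased levels in the difference between the models was not tested.

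For Tnfsf8 the log2 fold change was higher in the adenine model, by 2.16 (SE 0.55, adjusted p = 0.0120). This difference was under 2 without control replicate 3 (1.92), adenine replicate 3 (1.82) or sham replicate 1 (1.86). Tnfrsf14 (HVEM), a receptor of Tnfsf14, had log2 fold changes that differed between the models. It was at 24.5, 25.0 and 31.4 FPKM in control and 12.3, 18.2 and 23.4 FPKM in adenine kidneys, all lower than control, and at 19.9, 10.7 and 16.8 FPKM in sham and 29.1, 29.1 and 31.6 FPKM in UUO kidneys, all higher than sham. Its log2 fold change was -0.62 (SE 0.24, adjusted p = 0.0602) in the adenine model, which did not pass the test, and 0.97 (SE 0.22, adjusted p = 0.00669) in the UUO model, and the difference was -1.59 (SE 0.33, adjusted p = 0.0040). Under median-of-ratios scaling the adenine value passed the test (-0.86, adjusted p = 0.0165) and the UUO value did not (0.42, adjusted p = 0.133). Tnfrsf14 was higher in every control than in every sham sample, although levels of the 2 tables were set separately. The part of these unlike undiseased levels in the difference was not tested. Ltbr, which shares the ligand Tnfsf14 and binds lymphotoxin, was at 28.5, 30.3 and 25.6 FPKM in control and 38.6, 42.3 and 40.0 FPKM in adenine kidneys, a log2 fold change of 0.52 (SE 0.10, adjusted p = 0.00472). It was at 25.5, 31.1 and 26.9 FPKM in sham and 65.7, 59.9 and 56.7 FPKM in UUO kidneys, a log2 fold change of 1.13 (SE 0.11, adjusted p = 0.000133), and it rose less in the adenine model by 0.61 (SE 0.15, adjusted p = 0.00924), a difference lost under median-of-ratios scaling (-0.30, adjusted p = 0.207) and quantile normalization (-0.36, adjusted p = 0.0733).

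The other 4 differences with an adjusted p under 0.05 were all toward the UUO model. The difference of the log2 fold changes, adenine minus UUO, was -1.87 for Tnfsf18 (SE 0.47, adjusted p = 0.0113), -1.36 for Tnfrsf12a (SE 0.41, adjusted p = 0.0275), -1.10 for Tnfrsf26 (SE 0.34, adjusted p = 0.0303) and -1.02 for Tnfsf10 (SE 0.32, adjusted p = 0.0317). Under median-of-ratios scaling the differences of Tnfrsf12a, Tnfrsf26 and Tnfsf10 were lost (adjusted p = 0.0904, 0.131 and 0.149), while that of Tnfsf18 was lost with a pseudocount of 0.01 (adjusted p = 0.0903). The difference of Tnfrsf12a was also lost without adenine replicate 1 (adjusted p = 0.0787) or adenine replicate 3 (0.0634). Those of Tnfrsf26 and Tnfsf10 were lost in 7 and 8 of the 12 fits without one sample, with an adjusted p of up to 0.0748 and 0.0849. The fits that kept them were those without control replicate 1, adenine replicate 3 or UUO replicate 3 for both genes, without sham replicate 2 or 3 for Tnfrsf26 and without sham replicate 1 for Tnfsf10. Between the models a difference was not detected for Tnf (0.02, SE 0.54), Fas (0.02, SE 0.37), Tnfsf12 (-0.05, SE 0.21) or Tnfrsf1a (-0.10, SE 0.13).

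**Figure D4:**
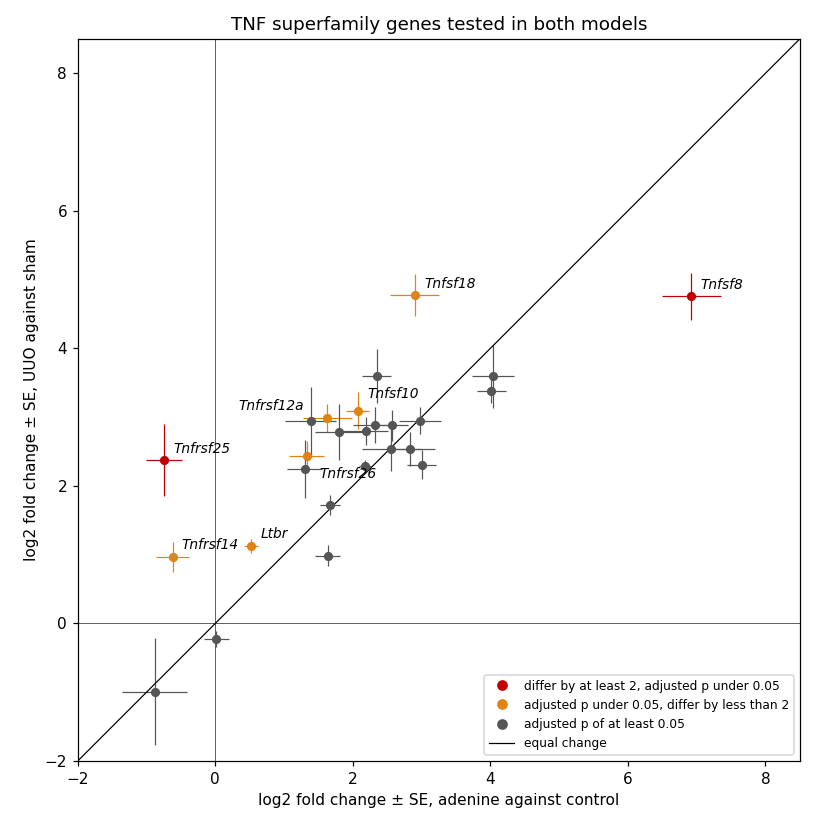
Log2 fold change ± SE in the adenine model (horizontal) against that in the UUO model (vertical), both on the log2(FPKM + 0.1) scale, for the 26 family members tested in both, with the line of equal change. Tnfsf8 lies right of the line (6.92 and 4.76), and the other 7 labelled members, which differed with an adjusted p under 0.05, lie above it, Tnfrsf25 the farthest (-0.75 and 2.37).

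Because members rose together, the start regions of their genes were read for 2 DNA motifs of factors that act downstream of the family. The 250 bases before the transcription start were searched on both strands in RefSeq promoters of the rat build GRCr8, which held 33 of the 43 members among 33469 promoters. The NF-kB consensus was found in 4 of the 33 (12.1%), Lta, Ltb, Tnfrsf8 and Tnfsf14, and in 3.54% of all promoters. The AP-1 motif TGANTCA was found in 3 of the 33 (9.09%), Fas, Tnfrsf1b and Tnfrsf8, and in 6.34% of all promoters. Of the 14 DEGs shared by the models 11 had a promoter, of which 0 held the NF-kB consensus and 2 the AP-1 motif. No match of one motif overlapped with one of the other. A match is a description of these letters and not a binding site. The matched stretches follow, 5′ to 3′ on the strand of the gene, with the motif in capitals, and the opposite-strand matches in Ltb and Tnfrsf8 (NF-kB) read in the gene's direction.
Lta, chr20:3623414-3623463, plus strand, NF-kB: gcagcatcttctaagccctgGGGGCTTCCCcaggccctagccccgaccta
Ltb, chr20:3634055-3634099, minus strand, NF-kB: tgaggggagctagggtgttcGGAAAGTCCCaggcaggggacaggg
Tnfrsf8, chr5:162451758-162451807, minus strand, NF-kB: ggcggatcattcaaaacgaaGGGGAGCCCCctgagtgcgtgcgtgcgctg
Tnfsf14, chr9:2160237-2160286, minus strand, NF-kB: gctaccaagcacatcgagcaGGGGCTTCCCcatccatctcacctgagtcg
Fas, chr1:241211930-241211976, plus strand, AP-1: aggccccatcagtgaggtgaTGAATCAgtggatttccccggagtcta
Tnfrsf1b, chr5:162387571-162387617, minus strand, AP-1: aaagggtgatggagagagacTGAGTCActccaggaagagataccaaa
Tnfrsf8, chr5:162451721-162451767, minus strand, AP-1: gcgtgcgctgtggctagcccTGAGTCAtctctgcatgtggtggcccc
These 7 stretches show that the AP-1 letters of Tnfrsf1b and Tnfrsf8 were identical (TGAGTCA), that those of Fas differed from them, and that Lta and Tnfsf14 shared the same 10 letters of the NF-kB consensus.

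Downstream of the receptors, 57 genes of adaptors, NF-kB, inhibitors, death execution, ligand shedding and the TNFAIP group, which are named for their induction by TNF or their likeness to such genes, were all tested in both models. In the adenine model 10 were upregulated DEGs, 39 rose and 4 fell (Traf4, Chuk, Rhbdf1 and Tnfaip8l1), with a median log2 fold change of 0.93, where 10.7% of all tested genes were upregulated DEGs, 39.6% rose and 19.9% fell. With UUO 14 were upregulated DEGs, 46 rose and 1, Chuk, fell, with a median of 1.05, beside 13.2%, 56.1% and 14.4% of all tested genes. Under median-of-ratios scaling 8 of the 10 and 8 of the 14 were DEGs, the lost calls being Relb and Tank in the adenine model and Relb, Nfkb2, Traf1, Tnfaip2, Tnfaip6 and Tnfaip8l3 in the UUO model. DEGs in both were Traf1, Relb, Nfkbie, Tnfaip3, Birc3, Ripk3, Tnfaip2, Tnfaip8l2 and Tnfaip8l3.

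Of the 57 genes, the inhibitors Birc3 and Tnfaip3 had the largest log2 fold changes in both models, although that of Tnfaip3 after UUO was within its SE of those of Ripk3 and Tnfaip8l2. Birc3, an inhibitor of apoptosis that NF-kB induces, was at 1.13, 1.70 and 1.21 FPKM in control and 27.2, 29.9 and 38.5 FPKM in adenine kidneys, a log2 fold change of 4.47 (SE 0.21, adjusted p = 2.61e-05). In sham kidneys Birc3 was at 2.06, 1.21 and 1.40 FPKM and in UUO kidneys at 37.8, 38.6 and 53.1 FPKM, with 4.72 (SE 0.23, adjusted p = 1.52e-05). Diseased samples were all far above the others. Tnfaip3 (A20), which removes ubiquitin chains from the TNFR1 complex, was at 0.955, 0.483 and 0.912 FPKM in control and 15.1, 13.2 and 16.2 FPKM in adenine kidneys, a log2 fold change of 4.12 (SE 0.26, adjusted p = 5.8e-05). It was at 2.39, 1.61 and 1.57 FPKM in sham and 15.2, 13.9 and 18.8 FPKM in UUO kidneys, with 3.05 (SE 0.21, adjusted p = 4.27e-05). Nfkbie, an inhibitor that holds NF-kB in the cytoplasm, had log2 fold changes of 2.30 (SE 0.11, adjusted p = 2.74e-05) and 2.61 (SE 0.17, adjusted p = 3.86e-05) in the adenine and UUO models. Of the 12 inhibitors 9 rose in the adenine and 11 in the UUO model, where 39.6% and 56.1% of all tested genes rose. None of the inhibitors fell in either, also at an unadjusted p under 0.05 in limma, where 19.9% and 14.4% of all tested genes fell by the adjusted p. Tank, a regulator of TRAF signals, was a DEG in the adenine model alone, at 2.04 (SE 0.27, adjusted p = 0.000865), and lost this call without control replicate 3, adenine replicate 1 or adenine replicate 3. In the UUO model it rose with 1.38 (SE 0.20, adjusted p = 0.000792).

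Of the 12 adaptors 7 rose and 1 fell in the adenine model and 8 rose in the UUO model, where 39.6% and 56.1% of all tested genes rose. Traf1 was the only DEG among them, at 0.772, 0.708 and 0.855 FPKM in control and 7.96, 4.97 and 5.48 FPKM in adenine kidneys (log2 fold change 2.80 (SE 0.23, adjusted p = 0.000128)) and at 1.06, 1.54 and 1.29 FPKM in sham and 6.68, 6.08 and 7.83 FPKM in UUO kidneys (2.33 (SE 0.20, adjusted p = 8.84e-05)). Of the 16 genes of NF-kB and its kinases 12 rose in the adenine and 13 in the UUO model (39.6% and 56.1% of all tested genes). Relb, the subunit of the noncanonical arm that Cd40, Ltbr and the BAFF receptor drive, was a DEG in both, with 2.13 (SE 0.12, adjusted p = 4.04e-05) and 2.27 (SE 0.14, adjusted p = 3.19e-05), and its partner Nfkb2 rose with 1.60 (SE 0.10, adjusted p = 5.8e-05) in the adenine model and was a DEG in the UUO model with 2.25 (SE 0.10, adjusted p = 1.39e-05). Chuk, the kinase IKK-alpha of the same arm, fell in both, with -1.16 (SE 0.19, adjusted p = 0.00196) and -0.93 (SE 0.11, adjusted p = 0.000362).

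Of the 5 genes of death execution 4 rose in the adenine and 5 in the UUO model, where 39.6% and 56.1% of all tested genes rose. Ripk3, a kinase of necroptosis, was at 2.34, 3.21 and 2.77 FPKM in control and 18.8, 18.0 and 22.2 FPKM in adenine kidneys, and at 3.39, 3.12 and 1.97 FPKM in sham and 22.7, 23.6 and 17.9 FPKM in UUO kidneys. Its log2 fold changes were 2.78 (SE 0.16, adjusted p = 4.66e-05) and 2.90 (SE 0.23, adjusted p = 6.94e-05). Mlkl, which Ripk3 phosphorylates, and Casp8, a caspase that death receptors activate, rose in both models and were DEGs in the UUO model alone. Their log2 fold changes there were 2.79 (SE 0.23, adjusted p = 8.91e-05) for Mlkl and 2.65 (SE 0.17, adjusted p = 3.19e-05) for Casp8, beside 1.76 and 1.49 in the adenine model. Of the 5 genes of ligand shedding 3 rose and 1, Rhbdf1, fell (-0.28, adjusted p = 0.0461) in the adenine model, where 19.9% of all tested genes fell. After UUO 4 rose, Rhbdf1 among them (1.12), and Timp3 passed the test in neither model. Adam17, the protease that sheds Tnf and its receptors, rose with a log2 fold change of 1.80 (SE 0.15, adjusted p = 0.000129) and 1.57 (SE 0.09, adjusted p = 2.6e-05). Rhbdf2, which carries Adam17 to the cell surface, rose with 1.75 (SE 0.17, adjusted p = 0.000244) in the adenine model and was a DEG in the UUO model with 2.65 (SE 0.13, adjusted p = 1.52e-05).

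Of the 7 TNFAIP genes 4 rose and 1 fell in the adenine model, and 5 rose and 0 fell in the UUO model. Over all tested genes 39.6% and 56.1% rose, and 19.9% and 14.4% fell. Tnfaip2, Tnfaip8l2 and Tnfaip8l3 were DEGs in both models, where 10.7% and 13.2% of all tested genes were upregulated DEGs. Their log2 fold changes were 2.97, 3.71 and 2.46 in the adenine and 2.33, 2.86 and 2.51 in the UUO model. With adenine Tnfaip8l1 fell (-0.85, adjusted p = 0.0374), and Tnfaip8 (-0.78) and Tnfaip6 (0.75) did not pass the test. Tnfaip6, a hyaluronan-binding protein of inflamed tissue, was a DEG in the UUO model alone, at 0.728, 0.625 and 0.581 FPKM in sham and 10.2, 3.27 and 1.65 FPKM in UUO kidneys (log2 fold change 2.40 (SE 0.60, adjusted p = 0.0102)). The UUO samples spread widely, and the call was lost without UUO replicate 1, the highest of them.

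**Figure D5:**
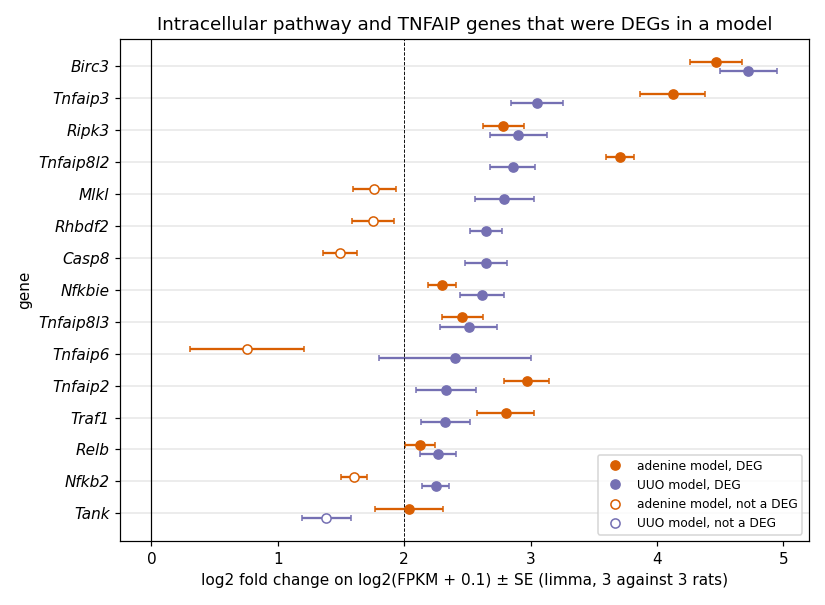
Log2 fold change ± SE on the log2(FPKM + 0.1) scale of the 15 intracellular pathway and TNFAIP genes that were DEGs in at least one model, with DEGs as filled points and the dashed line at 2. Birc3 was highest in both models (4.47 and 4.72), and the 5 DEGs of the UUO model alone have open points left of the line in the adenine model.

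Each list of leukocyte markers was higher in sum in diseased than in undiseased kidneys, although not every marker rose. Markers of kidney cells went up or down by cell type, and those of the tubules were mostly lower. The part of all these cells in the changes of the family was not tested. The counts of markers that follow stand beside all tested genes, of which 39.6% rose and 19.9% fell in the adenine model. In the UUO model 56.1% rose and 14.4% fell. Upregulated DEGs were 10.7% and 13.2% of all tested genes. The 7 macrophage markers were all upregulated DEGs in both models, and their sum went from 54.5 to 61.1 FPKM in control to 1180 to 1620 FPKM in adenine kidneys, and from 61.6 to 75.8 FPKM in sham to 705 to 1110 FPKM in UUO kidneys. Of the 6 T cell markers used, 6 rose in each model, and 3 were DEGs in the adenine and 6 in the UUO model. Their sum was 6.03 to 7.99 FPKM in control, 19.3 to 37.9 FPKM in adenine, 5.52 to 8.89 FPKM in sham and 50.8 to 150.0 FPKM in UUO kidneys. The NK cell markers summed to 2.84 to 5.49 FPKM in control, 6.32 to 11.9 FPKM in adenine, 3.49 to 3.89 FPKM in sham and 35.3 to 53.1 FPKM in UUO kidneys, and 1 of 3 tested rose in the adenine and 3 of 3 in the UUO model. B cell markers stayed low, at most 3.60 FPKM in sum in adenine kidneys, where 0 of 1 tested rose, and 6.85 FPKM in UUO kidneys, where 2 of 2 rose, with Cr2 at the lowest value in all control kidneys and Pax5 in all sham kidneys. Neutrophil markers summed to 1.14 to 2.44 FPKM in control, 14 to 26.5 FPKM in adenine, 0.304 to 1.57 FPKM in sham and 6.91 to 38.0 FPKM in UUO kidneys, with Mpo at the lowest value in all sham kidneys. Dendritic cell markers summed to 1.86 to 3.36 FPKM in control, 7.05 to 9.31 FPKM in adenine, 2.01 to 3.43 FPKM in sham and 15.8 to 21.5 FPKM in UUO kidneys, and 3 of 3 tested rose in the adenine and 5 of 5 in the UUO model. Plasma cell markers summed to 7.41 to 10.4, 68.9 to 120.0, 7.34 to 9.42 and 86.2 to 123 FPKM in the same order, and 2 of 4 rose and 1, Derl3, fell in the adenine model, while 2 of 3 rose in the UUO model. These plasma cell counts, and that of NK cell markers in the adenine model, were near the shares of all tested genes that rose.

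Among resident cells, fibroblast markers summed to 50.9 to 74.0 FPKM in control, 301 to 404 FPKM in adenine, 47.1 to 56.6 FPKM in sham and 684 to 1360 FPKM in UUO kidneys. Markers of the proximal tubule went the other way in sum, from 739 to 1660 FPKM to 48.0 to 283 FPKM in the adenine table. In the UUO table they went from 1060 to 1540 FPKM to 93.3 to 258 FPKM. Of these 6 markers, 3 in the adenine and 4 in the UUO model were downregulated DEGs (5.03% and 4.21% of all tested genes), and 0 rose in either. Their log2 fold changes ran from -4.31 to 2.78 in the adenine and from -4.54 to 0.05 in the UUO model, so not all were lower. Thick limb and distal markers fell too, with 2 of 4 in the adenine and 4 of 4 in the UUO model, and so did those of the collecting duct (3 of 4 and 4 of 4). Of 4 podocyte markers 1 fell in each model and 1 rose in the UUO model, where 19.9% and 14.4% of all tested genes fell and 56.1% rose after UUO. Endothelial markers were lower in sum in adenine than in control kidneys (27.5 to 39.4 against 68.1 to 76.2 FPKM) and higher in UUO than in sham kidneys (126 to 143 against 71.6 to 93.2 FPKM). The 4 endothelial markers went both ways in the adenine model, where 1 rose and 2, Emcn and Tek, fell. In the UUO model 2 of the 4 rose, near the share of all tested genes (56.1%). The uroplakins of the urothelium were all upregulated DEGs in the UUO model, with a sum of 69.4 to 136 FPKM against 0.646 to 2.65 FPKM in sham kidneys, and 0 of 2 tested rose in the adenine model, also at an unadjusted p under 0.05 in limma.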

How the data were processed

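The authors deposited FPKM values per gene, with control and adenine kidneys in 1 table and sham and UUO kidneys in another, and all 12 sample columns were used (0 columns of samples were left out). The submitters' processing notes name cutadapt 1.9, HISAT2 2.0.4, StringTie 1.3.4d, edgeR and DESeq2. The genome build behind the tables is not given in the sources used here, so genes are identified by symbol. FPKM carries no read counts, so the depth is unknown, no counting interval was calculated and no count model was fitted.

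Groups were taken from the sample labels. Log2(FPKM + 0.1) of genes that reached an FPKM of 0.5 in 3 or more of 6 samples was fitted for each table with limma 3.58.1 (eBayes with a trend) in R 4.3.3, with Benjamini-Hochberg adjustment over all tested entries. The thresholds of a DEG, an adjusted p under 0.05 with a log2 fold change of 2 or more in size, follow the study's methods. The difference between the models was tested against its SE, the 2 SEs added in quadrature, by a t distribution with the degrees of freedom of both fits, over 13486 symbols listed once in both tables. The fits were tested on simulated data. Python 3.11.15 served for the other steps (pandas 2.3.3, scipy 1.17.1, numpy 2.4.6, and matplotlib 3.10.9 for figures).

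The members, pathway genes and marker lists were chosen with earlier results of these data known. Values in every sample were given for DEGs, their partners, Tnf, Tnfrsf1a, Tnfrsf1b and members that differed between the models, and pathway genes were named where they were DEGs. Pathway genes that fell, Adam17, Timp3, Tnfaip8 and the sample values of Tnfrsf21, Tnfrsf11b and Ltbr were added after their values were seen. One gene of the pathway lists is not reported here. Marker genes with a symbol listed more than once in a table were left out there. Promoters came from RefSeq (GRCr8). Alternatives were other pseudocounts, filters, scalings, thresholds, a replicate block and leaving out each sample.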

Additional observations from a re-analysis of the deposited data

Results flagged for a closer look

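Of the 8 members whose log2 fold changes differed between the models by the adjusted p, 3 were flagged. The difference was also at least 2 for 2 of them, Tnfrsf25 and Tnfsf8. For Tnfrsf25 and Tnfrsf14 every control sample lay above every sham sample. For Tnfrsf25 the log2 fold change of the adenine model was lower than that of the UUO model by 3.11 on the log2 scale (difference -3.1142, adjusted p = 0.00247), since all adenine samples lay below the controls and all UUO samples above the sham samples. Over the 9 alternatives that kept all samples and both thresholds, this difference was between -3.43 and -1.77, and it was under 2 in size only with a pseudocount of 1. For Tnfrsf14 the difference was -1.5889 (adjusted p = 0.0040), under the size of 2 used for a call, and all adenine samples lay below the controls and all UUO samples above the sham samples, although the adenine value did not pass the test by itself (adjusted p = 0.0602). For Tnfsf8 the difference was 2.1635 (adjusted p = 0.0120), with samples of both models moving up. With a pseudocount of 0.01 the adjusted p of the Tnfsf8 difference was 0.0958.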

How the results depend on the processing

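With a pseudocount of 1 there were 5 upregulated DEGs of the family in the adenine and 8 in the UUO model, in place of 16 and 25, which the construction of the scale brings about for genes with low FPKM, and 0 differences between the models in place of 2. With a pseudocount of 0.01 there was 1 difference. Quantile normalization left 15 family DEGs in the UUO model, and for the rest of the family counts with both thresholds the number stayed within 1.5 times. Without a fold threshold 1 member fell in the adenine model and 8 members differed between the models, and with a threshold of 1 there were 7 differences. Among pathway genes, upregulated DEGs of the adenine model numbered 6 with a pseudocount of 1, 16 with FPKM rescaled to the same sum, 27 with a threshold of 1 and 39 with none, in place of 10. For UUO they were 8 with median-of-ratios scaling, 7 with quantile normalization, 29 with a threshold of 1 and 46 with none, in place of 14. Pathway genes that fell were 1 with a threshold of 1 and 4 with none in the adenine model and 1 with none in the UUO model, in place of 0. The causes of the changes under other scalings were not tested.

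Leaving out each sample in turn gave 15 to 18 family DEGs in the adenine and 23 to 25 in the UUO model, 9 to 11 and 13 to 15 pathway DEGs, and 1 to 3 differences between the models. The sign of the log2 fold change of Tnfrsf21 in the adenine model turned, with median-of-ratios scaling (-0.22), without control replicate 2 (-0.09), without control replicate 3 (-0.05) and without adenine replicate 2 (-0.12), within a range of -0.12 to 0.18 over the fits that left out a sample, and so did that of Tnfsf15 in the UUO model with quantile normalization (-0.28). Neither passed the test. In the adenine model Tnfrsf11b fell without control replicate 1 (adjusted p = 0.00747) and with quantile normalization (0.0459). By the adjusted p alone, the rise of Ltbr in the adenine model was lost with median-of-ratios scaling (adjusted p = 0.0535), that of Cd27 with quantile normalization (0.0855), the fall of Tnfrsf25 with no filter, with the same sum and with the replicate block (0.0737 to 0.128), and the rises of Tnfrsf14 and Tnfsf13 after UUO with median-of-ratios scaling, that of Tnfrsf14 also with quantile normalization (0.0744).

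Replicate numbers are shared by the groups but name different rats, and the deviations of samples with the same number correlated between -0.12 and 0.11, so they do not pair the samples. With the replicate number as a block there were 16 and 25 family DEGs, 10 and 14 pathway DEGs and 2 differences between the models, as without it. By the adjusted p alone, in the adenine model Tnfrsf14 (0.0279) and Tnfrsf11b (0.0407) fell with the block and Tnfrsf25 was lost, and the difference of Tnfrsf26 between the models was lost (0.0716). The depth of the libraries, and with it the error of values near 0 FPKM, is unknown.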
